A study of Mus musculus with 20 samples.

Results

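The genes examined were 10 genes of antigen presentation and the immunoproteasome: H2-K1, H2-D1, B2m, H2-Aa, H2-Ab1, H2-Eb1, Cd74, Tap1, Psmb8 and Psmb9. They were given by name, and each symbol was matched to 1 Ensembl identifier of the count matrix. They are 10 of the 55401 genes listed, and all 10 were among the 13626 genes that passed the filter on low counts and were tested.

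RNA was sequenced from the gastrocnemius, a fast calf muscle, of 20 C57BL/6 mice that were 24 months old. HK-treated mice had drunk 0.5 mg/kg/day of HK (Haenkenium, an extract of the plant Salvia haenkei) from 20 months of age, for 4 months, and untreated mice had drunk water. Each treatment group held 10 mice, 5 males and 5 females, and no young mice were analysed here. The labels divide the mice into 2 experimental batches of 8 and 12 mice, each with equal numbers of both treatments and sexes, so treatment, sex and batch can be separated. The libraries were made from whole muscle after ribosomal RNA depletion and held 13900180 to 30469644 counted reads. The 8 skeletal muscle fibre markers summed to between 124893 and 169923 CPM (reads of a gene scaled to library size) in every library.

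MHC class I molecules, made of a heavy chain such as H2-K1 or H2-D1 and the light chain B2m, sit on nearly all nucleated cells and show peptides from inside the cell. The immunoproteasome, in which Psmb8, Psmb9 and Psmb10 replace the constitutive catalytic subunits Psmb5, Psmb6 and Psmb7, cuts those peptides, and Tap1 with Tap2 carries them into the endoplasmic reticulum. MHC class II molecules, such as I-A formed by H2-Aa and H2-Ab1, are guided by the invariant chain Cd74, show peptides from endosomes and are made mainly by macrophages, dendritic cells and B cells. Interferon gamma raises both pathways, with Nlrc5 as a regulator of class I and Ciita of class II genes. In whole muscle, fewer cells of a type and less RNA per cell cannot be told apart.

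Of the 10 genes, 8 lie in the MHC region of chromosome 17 (GRCm38), within 1.271 Mb between 33996017 and 35267499. H2-K1 spans chr17:33996017-34000347, H2-D1 chr17:35262730-35267499, H2-Aa chr17:34282744-34287823, H2-Ab1 chr17:34257689-34269419 and H2-Eb1 chr17:34305867-34316674. Tap1 at chr17:34187553-34197225 lies head to head with Psmb9 at chr17:34181987-34187764 on the other strand, and their exons share 212 bp. Psmb8 at chr17:34197721-34201454 follows Tap1 and shares 498 bp of exon with an antisense gene that held 1 read in all. B2m lies at chr2:122147686-122153083 and Cd74 at chr18:60803848-60812652. The sources used here do not give whether the counting used strand or how it treated reads that map to both H2-K1 and H2-D1. The division of reads between those pairs is uncertain.

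RefSeq promoter windows (GRCm38.p6, 250 bases before to 50 after a gene start) were matched for 8 of the 10 genes, in 9 windows, with none for H2-Ab1 and Cd74. They were searched on both strands for the Y box (CTGATTGG) of MHC promoters, the X box core (ACAGATG), the enhancer A core of class I genes (GGGGATTCC), the core of the interferon-stimulated response element (GAAANNGAA) and the GAS element (TTCNNNGAA). The Y box was found in 6 of the 8 genes, H2-K1, H2-D1, H2-Aa, H2-Eb1, Tap1 and Psmb9, against 4.09% of 32817 windows of the same length in the same table. The promoters of 4 MHC genes and Tap1 are shown because their genes carry the Y box and because the class II genes moved together. Each runs 5′ to 3′ on its gene's strand from 250 bases before the start, with the motifs in capitals: GGGGATTCC is enhancer A, CTGATTGG or its reverse complement is the Y box, and the first capitals in H2-Aa are the X box core on the other strand.

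H2-K1 is on the minus strand at chr17:34000332-34000583, H2-D1 on the plus strand at chr17:35262844-35263095, H2-Aa on the minus strand at chr17:34287822-34288073, H2-Eb1 on the plus strand at chr17:34305617-34305868 and Tap1 on the plus strand at chr17:34187306-34187557.
H2-K1: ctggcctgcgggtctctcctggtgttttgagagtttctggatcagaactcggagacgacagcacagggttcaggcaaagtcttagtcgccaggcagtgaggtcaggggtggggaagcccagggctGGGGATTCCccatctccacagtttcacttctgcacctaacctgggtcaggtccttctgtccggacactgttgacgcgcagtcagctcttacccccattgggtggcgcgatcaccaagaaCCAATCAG
H2-D1: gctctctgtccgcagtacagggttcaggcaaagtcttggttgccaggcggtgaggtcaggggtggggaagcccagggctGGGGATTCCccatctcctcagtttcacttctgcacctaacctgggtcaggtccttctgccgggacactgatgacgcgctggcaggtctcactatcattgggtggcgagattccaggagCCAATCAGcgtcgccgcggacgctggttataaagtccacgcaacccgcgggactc
H2-Aa: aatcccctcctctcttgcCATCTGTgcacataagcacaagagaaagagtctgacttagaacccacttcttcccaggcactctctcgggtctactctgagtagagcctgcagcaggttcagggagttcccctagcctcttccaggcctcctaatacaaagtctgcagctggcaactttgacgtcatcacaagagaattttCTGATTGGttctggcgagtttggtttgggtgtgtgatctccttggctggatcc
H2-Eb1: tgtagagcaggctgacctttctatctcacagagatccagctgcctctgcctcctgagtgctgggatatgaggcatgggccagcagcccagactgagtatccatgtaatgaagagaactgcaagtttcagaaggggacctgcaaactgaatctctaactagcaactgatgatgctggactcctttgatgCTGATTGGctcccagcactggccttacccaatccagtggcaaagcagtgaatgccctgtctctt
Tap1: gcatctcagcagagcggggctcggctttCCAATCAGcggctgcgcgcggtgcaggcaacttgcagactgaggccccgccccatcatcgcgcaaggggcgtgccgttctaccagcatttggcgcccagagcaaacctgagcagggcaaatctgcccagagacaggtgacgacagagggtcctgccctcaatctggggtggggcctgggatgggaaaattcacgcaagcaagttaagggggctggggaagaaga

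The enhancer A core stood only in H2-K1 and H2-D1 among the 8 genes, and in 0.25% of all windows. The letters of the X box core were found in H2-Aa alone, with 5.02% of all windows holding them. They began at -232 from the start, apart from the Y box, which began at -51. The windows of Tap1 and Psmb9 share 275 bases and hold the same Y box. B2m held the interferon response core (8.55% of windows) and Psmb8 the GAS element (8.29%), neither with an exact match to the Y box. A match describes the letters of the window and is no measure of binding. Only the exact letters were searched, so a window without a match may hold a variant of the motif.

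After division by exon length, B2m had the highest mean level of the set, and Psmb8, Tap1 and Psmb9 the 3 lowest. Exon lengths are unions over all transcripts, so the order depends on the annotation. Before the division H2-Aa averaged 18.3 CPM, above H2-Eb1 at 14.5 and H2-Ab1 at 14.4. B2m averaged 77.6 ± 15.9 CPM per kb of exon (SD, n = 20 mice), H2-D1 26.6 ± 7.31, Cd74 22.3 ± 14.6 and H2-K1 22.1 ± 3.74. H2-Eb1, H2-Ab1 and H2-Aa followed at 7.45 ± 4.78, 5.62 ± 3.64 and 4.82 ± 3.22 CPM per kb. Psmb8 averaged 1.13 ± 0.255, Tap1 0.635 ± 0.223 and Psmb9 0.523 ± 0.191 CPM per kb. Within single mice most neighbours kept that order. H2-D1 was above Cd74 in 16 of 20 mice, Cd74 above H2-K1 in only 7 of 20, and Tap1 above Psmb9 in 12 of 20, so these neighbours did not separate. Every mouse had reads of all 10 genes, from a total of 707 reads for Psmb9 to 24595 for H2-D1.

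The class II genes had the largest SDs of the set. Batch and sex were removed as separate terms, so a sex difference that varies with batch stays in these SDs. After adjustment for batch and sex the SD of log2 CPM was 0.74 for H2-Aa, 0.68 for H2-Ab1, 0.66 for H2-Eb1 and 0.68 for Cd74, against 0.22 for the median gene. Between 94.8% and 96.8% of tested genes varied less than these 4. H2-K1, H2-D1 and B2m had SDs of 0.19, 0.24 and 0.24, near the median gene, and Psmb8, Tap1 and Psmb9 lay between at 0.31, 0.51 and 0.62.

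**Figure D1:**
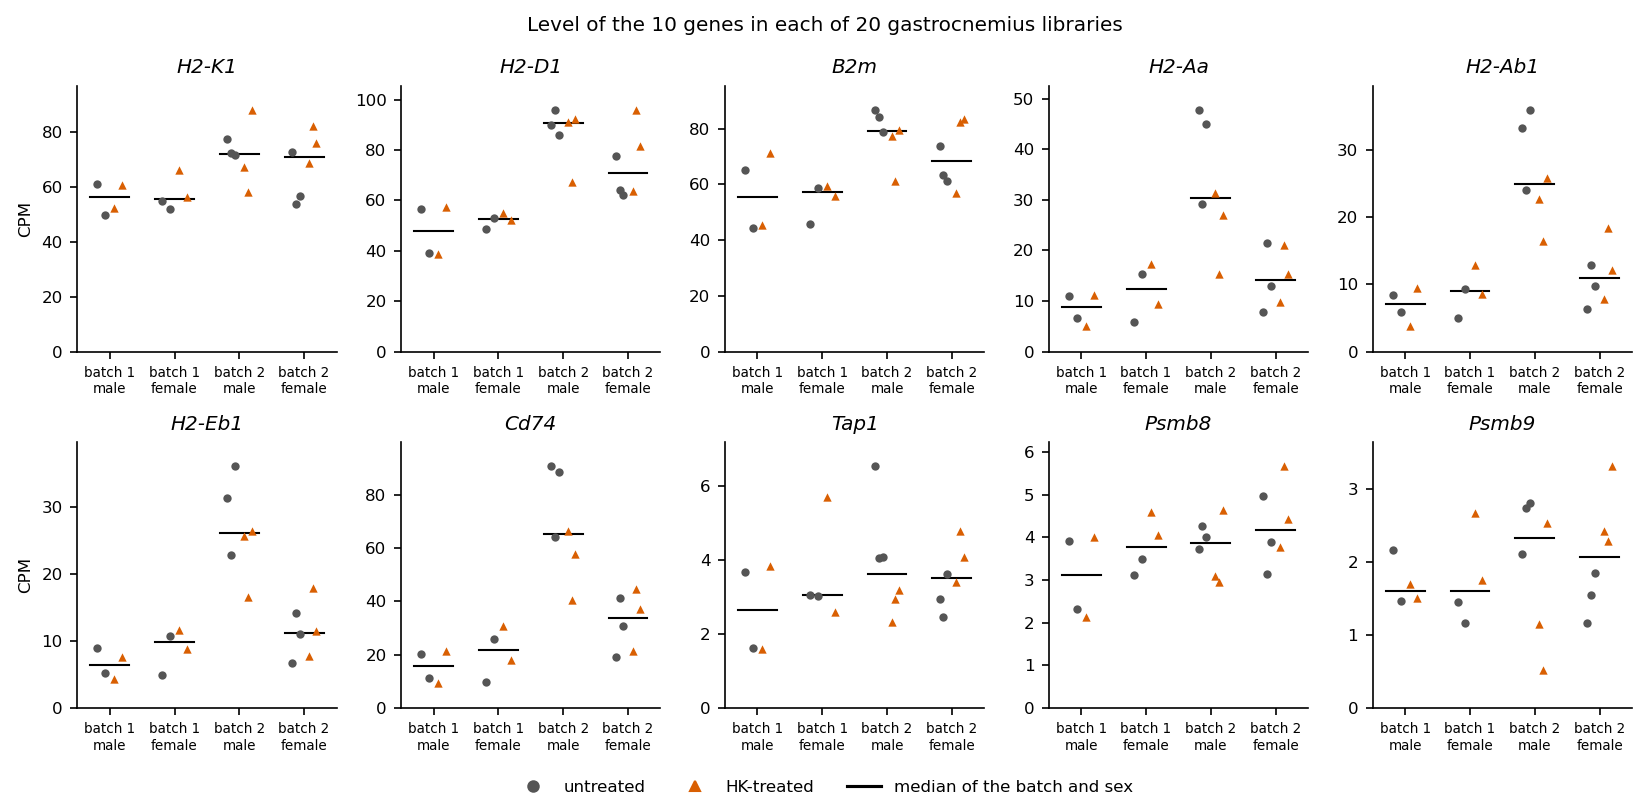
CPM (library-scaled counts, y axis from 0) of each of the 10 genes in every mouse, by batch and sex (x axis), with untreated mice as grey circles, HK-treated mice as orange triangles and a bar at the median. H2-Aa, H2-Ab1, H2-Eb1 and Cd74 have their highest median in the 6 males of batch 2, a group of 3 mice of each treatment.

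The first comparison asked whether HK changed these genes in old muscle. None of the 10 genes differed between HK-treated and untreated mice after adjustment (quasi-likelihood test of edgeR, fitted with terms for treatment, sex and batch). Over all genes 0% were called, and 6.13% had an unadjusted p under 0.05, of which none was one of the 10. DESeq2 called 7 genes and limma voom 0, again none of the 10. Of the 10 fold changes 6 were positive and 4 negative. Their median on the log2 scale was 0.0334, where that of all genes was 0.00238. On the log2 scale the widest 95% interval was that of H2-Aa, from -0.78 to 0.45.

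H2-K1, a classical class I heavy chain, ranged from 49.9 to 77.5 CPM (median 59.0) in untreated and from 52.4 to 88.0 CPM (median 66.7) in HK-treated mice. The groups overlapped, although 7 of 10 HK-treated mice were above the untreated median. Its log2 fold change of 0.12 ± 0.08 (SE) had the lowest p of the 10 genes, 0.147, and an adjusted p of 0.832 in edgeR. H2-D1, the other classical heavy chain of this strain, ranged from 39.3 to 95.8 CPM (median 63.3) in untreated and from 38.9 to 95.9 CPM (median 65.6) in HK-treated mice. Its log2 fold change was 0.05 ± 0.10. B2m, the light chain they share, ranged from 44.3 to 86.7 CPM (median 64.3) and from 45.5 to 83.6 CPM (median 66.3), a log2 fold change of 0.04 ± 0.10. For these abundant genes the 95% intervals bound the fold between 0.969 and 1.22 for H2-K1, 0.898 and 1.20 for H2-D1, and 0.892 and 1.18 for B2m.

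H2-Aa, the alpha chain of the I-A class II molecule, ranged from 5.77 to 47.7 CPM (median 14.2) in untreated and from 5.13 to 31.4 CPM (median 15.4) in HK-treated mice. H2-Ab1, its beta chain, ranged from 5.02 to 35.9 CPM (median 9.55) and from 3.82 to 25.8 CPM (median 12.5). H2-Eb1 encodes the beta chain of I-E, a molecule C57BL/6 mice do not form since they lack its alpha chain. It ranged from 4.88 to 36.0 CPM (median 10.9) and from 4.31 to 26.3 CPM (median 11.5). The groups overlapped almost wholly for all 3. Cd74, the invariant chain that guides class II molecules to endosomes, ranged from 9.84 to 90.6 CPM (median 28.2) in untreated and from 9.39 to 66.4 CPM (median 33.9) in HK-treated mice. The log2 fold changes were -0.17 ± 0.29 for H2-Aa, 0.03 ± 0.27 for H2-Ab1, -0.04 ± 0.26 for H2-Eb1 and -0.06 ± 0.27 for Cd74. The 95% interval of H2-Ab1 began at a fold of 0.694 and was wider than those of the class I chains. All 12 macrophage markers had negative log2 fold changes with HK, from -0.56 to -0.14, and none was called. The direction was not particular to them. All 6 endothelial markers were negative too (median -0.25), and of 6 leukocyte markers 4 were negative and 2 positive, again none called.

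Tap1 ranged from 1.62 to 6.53 CPM (median 3.33) in untreated and from 1.58 to 5.69 CPM (median 3.29) in HK-treated mice. Psmb8, which replaces Psmb5, ranged from 2.32 to 4.96 CPM (median 3.81) and from 2.13 to 5.67 CPM (median 4.02). Psmb9, which replaces Psmb6, ranged from 1.16 to 2.81 CPM (median 1.70) and from 0.515 to 3.31 CPM (median 2.02). The groups overlapped for each of the 3, with log2 fold changes of -0.01 ± 0.22, 0.09 ± 0.14 and 0.13 ± 0.25.

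**Figure D2:**
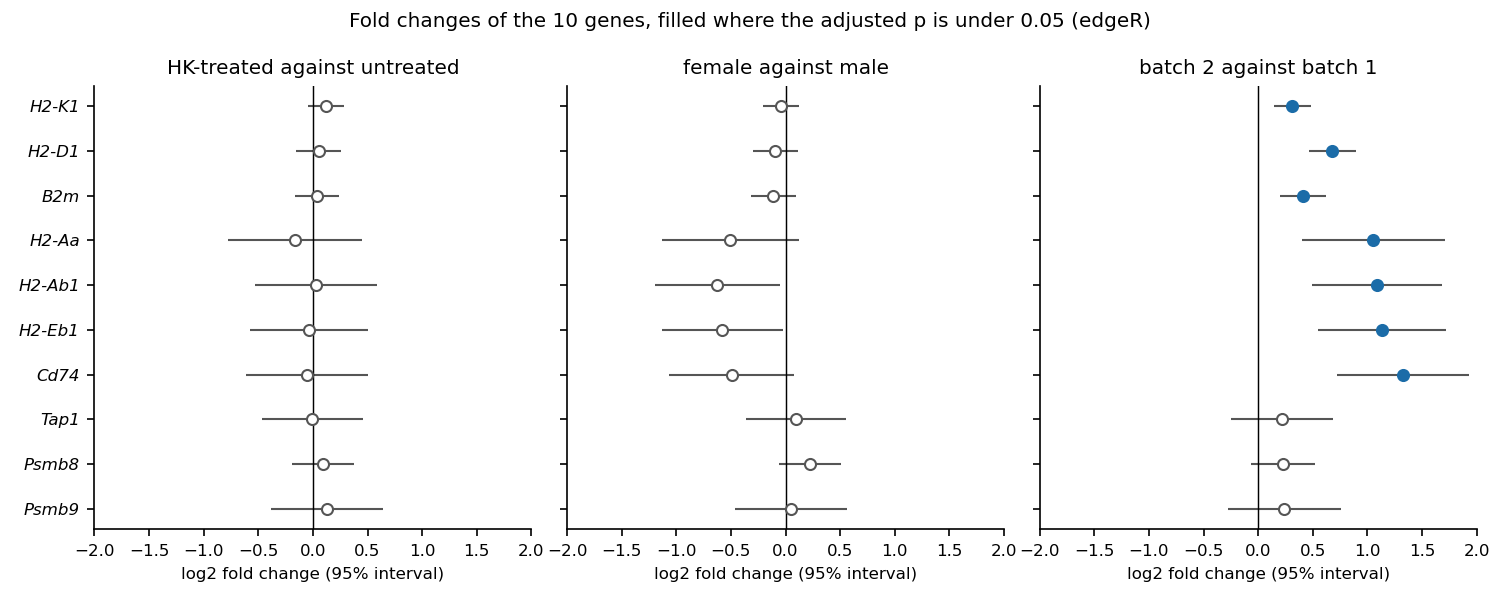
Log2 fold change of each gene with its 95% interval (x axis) in 3 comparisons, filled where the adjusted p of edgeR is under 0.05. No gene is filled for HK or sex, 7 of 10 are filled for batch, and the intervals of the 4 class II genes are the widest in the sex and batch panels.

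No other gene of the pathway lists was called with HK either. None of the 10 class I chains, 6 tested class II genes, 8 genes of peptide supply, 6 of the immunoproteasome and its activator, 11 regulators, 11 tested interferon gamma responsive genes or 6 endosomal enzymes was called in edgeR. The list medians ran from -0.09 for class II to 0.06 for class I chains on the log2 scale. H2-Q6, a class Ib chain, had a log2 fold change of 0.46 ± 0.22 (unadjusted p = 0.0488, adjusted p = 0.795 in edgeR). The guanylate-binding protein Gbp7 had 0.24 ± 0.12 (adjusted p = 0.795) and Psmb10, the third inducible catalytic subunit, -0.20 ± 0.09 (unadjusted p = 0.0310, adjusted p = 0.795), both by edgeR. Lowest in p among the other lists were H2-DMb1 (log2 fold change -0.24 ± 0.30), Canx (-0.08 ± 0.07), Ifngr2 (0.12 ± 0.07) and Ctsb (-0.07 ± 0.06). Ifi47 and Tgtp2 were listed at 0 in every mouse.

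**Figure D3:**
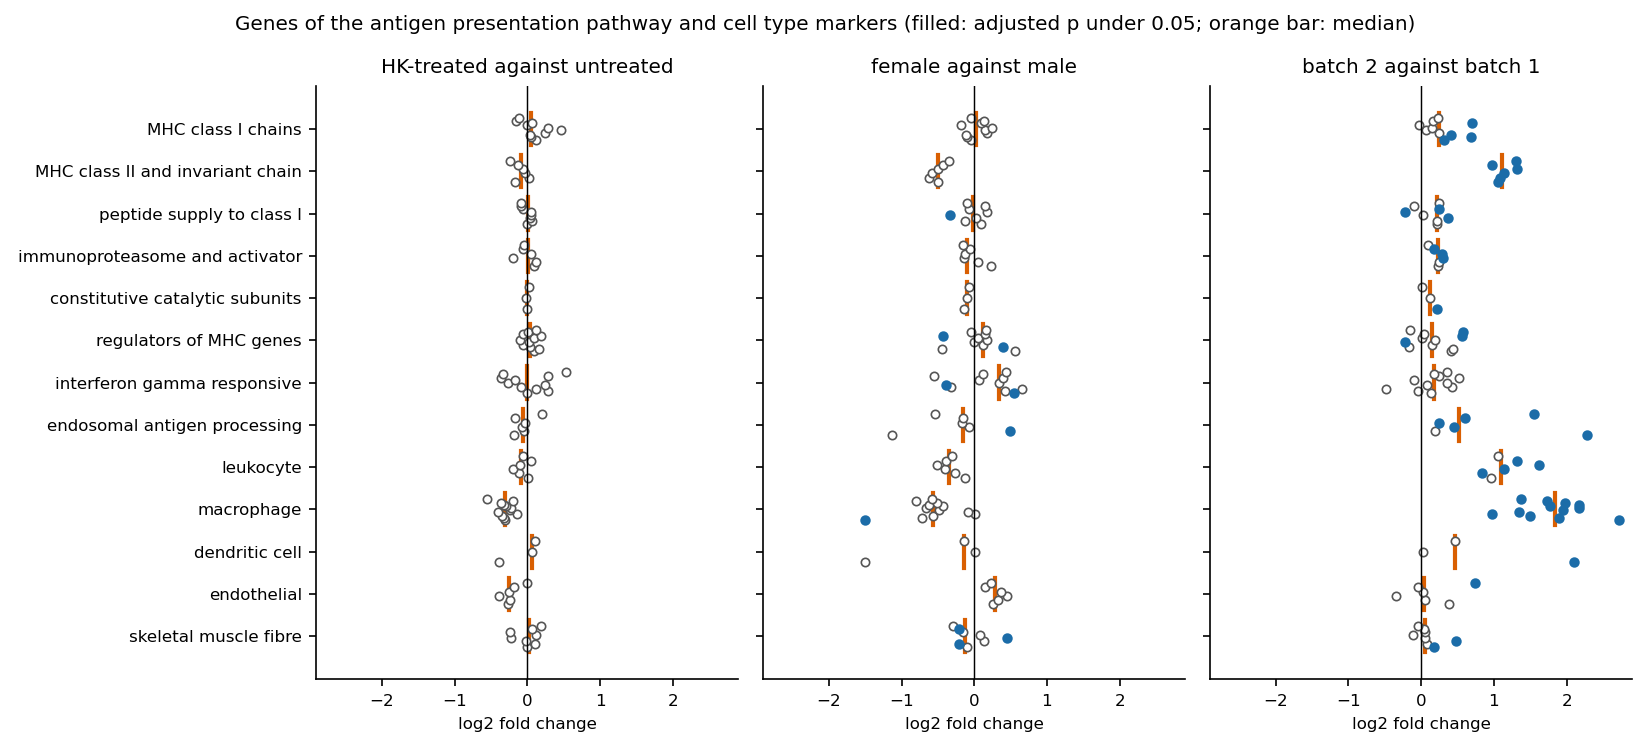
Log2 fold change (x axis) of each tested gene of 8 pathway lists and 5 marker lists (rows) in 3 comparisons, filled where the adjusted p of edgeR is under 0.05, with an orange bar at each median. With HK no point is filled, and with batch the 6 class II genes and all 12 macrophage markers are filled and lie above 0.

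The second comparison asked whether the effect of HK differed between the sexes. No gene passed the adjusted threshold for a treatment by sex interaction (0% of 13800 genes tested in edgeR), and 3.5% had an unadjusted p under 0.05. Psmb9 and Tap1 were 2 of those. Psmb9 was read at 2.16, 1.47, 2.11, 2.74 and 2.81 CPM in the 5 untreated males and at 1.69, 1.51, 1.16, 0.515 and 2.53 CPM in the 5 HK-treated males. The 5 untreated females were at 1.45, 1.16, 1.16, 1.55 and 1.85 CPM, and the 5 HK-treated females at 2.67, 1.75, 2.43, 2.29 and 3.31 CPM. The females of the treatments overlapped by 1 mouse, with untreated female 5 above HK-treated female 2, and the males overlapped more widely. The interaction was 1.39 ± 0.39 on the log2 scale, with an unadjusted p of 0.00206 and an adjusted p of 0.998 in edgeR. In females alone Psmb9 had a log2 fold change of 0.80 ± 0.20 (unadjusted p = 0.00184, adjusted p = 0.99998 in edgeR). Psmb9 was among 3 of the 10 genes with an unadjusted p under 0.05 in that fit, where 2.6% of all genes had one. In males alone its log2 fold change was -0.59 ± 0.33. The interaction of Tap1, which shares exon sequence with Psmb9, was 0.96 ± 0.39 (unadjusted p = 0.0244, adjusted p = 0.998 in edgeR). All 10 genes had a positive interaction, between 0.24 and 1.39, where 48.9% of all genes did. Several of the 10 vary together over the mice, so their signs are not independent, and none was called. The treatment by batch interaction gave 0% of genes called and no unadjusted p under 0.05 among the 10, the lowest being 0.289 for Tap1 in edgeR.

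The third comparison set females against males. None of the 10 genes was called, while 16.1% of all genes were. With no filter on low counts the 4 class II genes were called lower in females, where 9.25% of genes were called. In that fit the fold changes hardly moved and the SEs were smaller. They came to 0.07 for each of H2-K1, H2-D1 and B2m and to between 0.08 and 0.09 for the class II genes. These SEs hardly followed the larger spread of the class II genes between mice. H2-Ab1 was at -0.62 ± 0.09 against -0.63 ± 0.27 with the filter, and H2-Aa at -0.50 ± 0.09 against -0.50 ± 0.30. H2-Ab1 and H2-Eb1 were lower in females at an unadjusted p under 0.05, as were 15.6% of all genes. H2-Ab1 ranged from 3.82 to 35.9 CPM (median 19.6) in males and from 5.02 to 18.4 CPM (median 9.55) in females. All 10 females lay below the male median, yet the lowest values of the sexes overlapped. Its log2 fold change was -0.63 ± 0.27 (unadjusted p = 0.0334, adjusted p = 0.126 in edgeR). H2-Eb1, H2-Aa and Cd74 were at -0.58 ± 0.27, -0.50 ± 0.30 and -0.49 ± 0.28. The class I chains lay between -0.11 and -0.04, and Tap1, Psmb8 and Psmb9 between 0.05 and 0.22.

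The log2 fold changes of the class II genes between the sexes had opposite signs in the 2 batches. A direct test of that difference, given below, called none of the 4 in edgeR. In the 12 mice of batch 2 alone all 4 were lower in females, with 6.59% of genes called and 3.63% called lower in females in that fit. H2-Ab1 was read at 33.2, 23.97 and 35.9 CPM in the untreated and 22.7, 16.4 and 25.8 CPM in the HK-treated males of batch 2. The females of batch 2 were at 6.37, 12.9 and 9.78 CPM untreated and at 7.83, 18.4 and 12.1 CPM HK-treated. Only HK-treated female 4, at 18.4 CPM, was above the lowest male. The log2 fold change in batch 2 was -1.21 ± 0.25 for H2-Ab1 (adjusted p = 0.0126), -1.19 ± 0.23 for H2-Eb1 (adjusted p = 0.0103), -1.10 ± 0.28 for H2-Aa (adjusted p = 0.0350) and -1.05 ± 0.23 for Cd74 (adjusted p = 0.0190), all by edgeR.

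In the 8 mice of batch 1 the same genes had positive log2 fold changes in females, with values of 0.36 ± 0.31, 0.45 ± 0.30, 0.49 ± 0.36 and 0.42 ± 0.36, none called where 9.63% of genes were. H2-Ab1 was read there at 8.40, 5.87, 3.82 and 9.43 CPM in the males and at 5.02, 9.32, 12.9 and 8.59 CPM in the females. The sexes overlapped in batch 1. The highest of these, HK-treated female 1, had 15.6 CPM summed over 6 B cell markers, against at most 3.02 CPM in any other mouse, and the part of B cells in its class II level was not tested.

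A sex by batch term, added after the data were seen, was -1.60 ± 0.43 for H2-Ab1, -1.65 ± 0.40 for H2-Eb1, -1.62 ± 0.50 for H2-Aa and -1.49 ± 0.45 for Cd74 on the log2 scale. Their unadjusted p were 0.00145, 0.000609, 0.00394 and 0.00348, among 13% of genes with an unadjusted p under 0.05, and their adjusted p 0.140 to 0.192 in edgeR, where 0% of genes were called. Leaving out each mouse in turn kept the term of H2-Ab1 between -1.80 and -1.34 and of H2-Eb1 between -1.87 and -1.48. Each term was nearest to 0 without HK-treated female 1, at -1.34 ± 0.44 for H2-Ab1, -1.48 ± 0.42 for H2-Eb1, -1.30 ± 0.51 for H2-Aa and -1.20 ± 0.45 for Cd74. DESeq2 called H2-Ab1 (adjusted p = 0.0283) and H2-Eb1 (adjusted p = 0.0151) among 1.02% of all genes, while limma voom called neither.

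The fourth comparison set batch 2 against batch 1, with treatment and sex in the fit. The batches differ in 37.1% of all genes, and 18.2% were called higher in batch 2. Of the 10 genes 7 were called, all higher in batch 2, and the other 3 had positive fold changes. H2-D1 ranged from 38.9 to 57.5 CPM (median 52.7) in batch 1 and from 62.2 to 95.9 CPM (median 83.9) in batch 2. It was the only one of the 10 genes with every mouse of batch 2 above every mouse of batch 1, as were 1.06% of all genes, at 1.60-fold (log2 0.68 ± 0.10, adjusted p = 7.91e-05 in edgeR). B2m rose by 1.33-fold (log2 0.41 ± 0.10, adjusted p = 0.00365) and H2-K1 by 1.24-fold (log2 0.31 ± 0.08, adjusted p = 0.00532), also by edgeR.

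The class II genes differed most between the batches. Cd74 ranged from 9.39 to 30.8 CPM (median 19.1) in batch 1 and from 19.1 to 90.6 CPM (median 42.9) in batch 2. All 12 mice of batch 2 were above the batch 1 median, and the ranges overlapped. The fold was 2.50 for Cd74 (log2 1.32 ± 0.29, adjusted p = 0.00157), 2.19 for H2-Eb1 (1.13 ± 0.28, 0.00369), 2.13 for H2-Ab1 (1.09 ± 0.29, 0.00568) and 2.08 for H2-Aa (1.05 ± 0.31, 0.0126), all adjusted p by edgeR. Tap1, Psmb8 and Psmb9 had log2 fold changes of 0.22 ± 0.22, 0.23 ± 0.14 and 0.24 ± 0.25 and were not called.

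Split by sex, also after the data were seen, the males alone gave the same 7 genes, where 13.2% of genes were called higher in batch 2. Their class II log2 fold changes were 1.89 ± 0.29 for H2-Aa, 1.90 ± 0.25 for H2-Ab1, 2.00 ± 0.23 for H2-Eb1 and 2.09 ± 0.26 for Cd74. In females alone 5.6% of genes were called higher, and of the 10 genes only H2-D1 (log2 0.51 ± 0.11, adjusted p = 0.0192 in edgeR). The class II values in females were 0.31 ± 0.34, 0.34 ± 0.27, 0.36 ± 0.28 and 0.63 ± 0.31 in the same order.

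Other genes of the class II pathway and of macrophages moved with batch in the same direction. The 6 tested class II genes were all called higher in batch 2, with a median of 1.11 on the log2 scale and one of 0.00248 over all genes. They include H2-DMa (0.97 ± 0.21) and H2-DMb1 (1.30 ± 0.31), which load peptides onto class II molecules. Of 6 endosomal enzymes 5 were called higher, with Ctss, the protease that trims the invariant chain, at 2.27 ± 0.42 and Ifi30, a thiol reductase, at 1.55 ± 0.28, and Ctsb, Ctsd and Lgmn the other 3. All 12 macrophage markers were called higher, with a median of 1.84, and 4 of 6 leukocyte markers.

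The 12 macrophage markers summed to 16.4 to 49.5 CPM (median 29.8) in batch 1 and to 44.9 to 196 CPM (median 98.9) in batch 2. Over the sexes they summed to 16.4 to 196 CPM (median 87.8) in males and to 24.1 to 117 CPM (median 57.2) in females, and 11 of 12 had negative fold changes in females, with Cd68 called. Within batch 2 the 6 males had 69.0 to 196 CPM and the 6 females 44.9 to 117 CPM. Their part in the class II differences was not tested. Of 3 tested dendritic cell markers Itgax was called higher in batch 2. No T, NK or B cell marker passed the filter, and their sums had medians of at most 0.927 CPM in any group. Of 6 endothelial markers 1, Vwf, was called higher in batch 2.

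Class I and its peptide supply shifted less. Of 10 class I chains 4 were called higher in batch 2, the 3 named above and H2-T23 (log2 0.70 ± 0.16). Tapbp, which bridges class I molecules to the transporter, rose (0.37 ± 0.08) with the chaperone Calr (0.25 ± 0.06), while the trimming enzyme Erap1 fell (-0.23 ± 0.07). Psmb10 (0.30 ± 0.09), the proteasome activator subunits Psme1 (0.29 ± 0.07) and Psme2 (0.18 ± 0.06) and the constitutive subunit Psmb5 (0.22 ± 0.06) were called higher. Of 11 regulators Irf8 (0.56 ± 0.14) and Ifngr1 (0.57 ± 0.13) were called higher and Rfxap, a subunit of the factor that binds the X box, lower (-0.22 ± 0.07). Over all genes 37.1% were called and 18.2% called higher in batch 2. The called shares of the regulators and of the peptide supply genes were near or below that. Ciita and Nlrc5 were at 0.44 ± 0.44 and 0.41 ± 0.27 and not called. None of the 11 tested interferon gamma responsive genes was called in edgeR. At an unadjusted p under 0.05 there were 2 higher and 1 lower, where 46.6% of all genes had such a p. The lowest p was that of Igtp (0.36 ± 0.14, adjusted p = 0.0517 in edgeR).

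Between the sexes the called genes of these lists went both ways, where 16.1% of all genes were called. Tapbpl (log2 -0.34 ± 0.11), Irf8 (-0.43 ± 0.14) and Gbp7 (-0.39 ± 0.12) were lower in females, and Rfx5 (0.39 ± 0.11), Gbp2 (0.55 ± 0.17) and the protease Ctsl (0.49 ± 0.08) higher. None of the class I chains, class II genes, immunoproteasome genes or constitutive subunits was called. Of the 6 class II genes 3 were lower in females at an unadjusted p under 0.05 in edgeR, as were 15.6% of all genes.

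The inducible subunits were a small share of their constitutive counterparts. Per kb of exon, Psmb8 stood at 1.71% to 4.68% of Psmb5 (median 3.02%), Psmb9 at 0.216% to 1.37% of Psmb6 (median 0.837%) and Psmb10 at 5.98% to 11.1% of Psmb7 (median 7.86%) over 20 mice. Psmb5, Psmb6 and Psmb7 carry the constitutive catalytic sites, and their levels were 36.7 ± 4.60, 63.9 ± 5.54 and 61.3 ± 3.75 CPM per kb. Exon lengths are unions over all transcripts of a gene, so the shares depend on the annotation, and the comparisons between mice do not.

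Psmb8 over Psmb5 was higher in females. It ranged from 1.71% to 4.04% (median 2.70%) in males and from 2.71% to 4.68% (median 3.43%) in females, and all 10 females were above the male median, with overlapping ranges. The log2 ratio differed by 0.39 (exact two-sided permutation within treatment and batch, 14400 arrangements, p = 0.0136, adjusted over 3 ratios 0.0408). Within batch 1 the difference was 0.41 (exact permutation p = 0.333) and within batch 2 0.37 (exact permutation p = 0.0200). The call depended on the mice included. Leaving out 1 mouse at a time gave differences between 0.29 and 0.46 and took the adjusted p to 0.05 or above in 14 of 20 cases, up to 0.110 without HK-treated female 1. It held without untreated male 1 or 5, HK-treated male 2, untreated female 1 or 4, or HK-treated female 3. Neither gene was called alone, Psmb8 being at 0.22 ± 0.14 and Psmb5 at -0.15 ± 0.06 on the log2 scale between the sexes. Psmb9 over Psmb6 and Psmb10 over Psmb7 differed by 0.21 and -0.06 (exact permutation p = 0.508 and 0.524).

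With HK none of the 3 ratios passed. Psmb10 over Psmb7 ranged from 6.32% to 11.1% (median 8.50%) in untreated and from 5.98% to 8.97% (median 6.77%) in HK-treated mice, of which 2 of 10 were above the untreated median. The log2 difference was -0.22 (exact permutation p = 0.0310, adjusted 0.0929). It was -0.23 within batch 1 and -0.21 within batch 2 (exact permutation p = 0.0556 and 0.175). Without untreated female 3 it was -0.28 with an adjusted exact permutation p of 0.00125, and without any other mouse it did not pass. The differences were 0.08 for Psmb8 over Psmb5 and 0.04 for Psmb9 over Psmb6 (exact permutation p = 0.589 and 0.908).

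**Figure D4:**
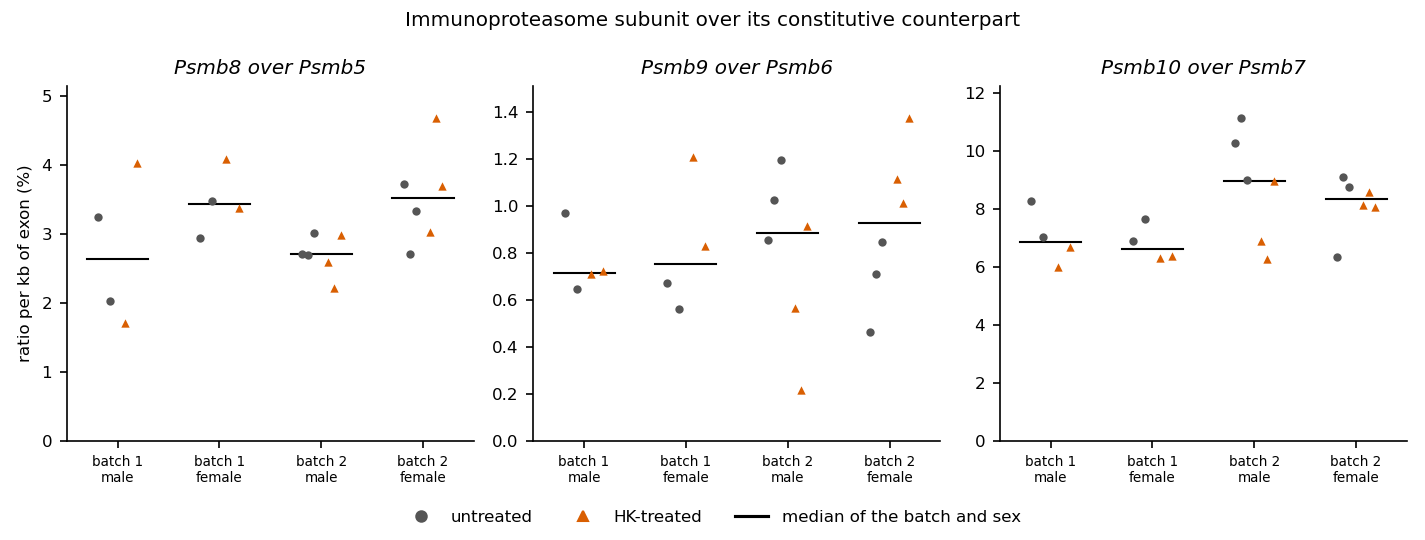
Ratio of each inducible to its constitutive catalytic subunit per kb of exon, in percent (y axis from 0), in every mouse by batch and sex (x axis), with grey circles for untreated, orange triangles for HK-treated mice and a bar at the median. For Psmb8 over Psmb5 all 10 females are above the male median of 2.70%.

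The genes fell into groups that varied together over the 20 mice. Correlations were computed on log2 CPM adjusted for treatment, sex and batch, for 45 pairs of the 10 genes and 30 pairs with Ptprc, C1qa or Pecam1, which mark leukocytes, macrophages and endothelium. The 3 effects were removed as separate terms. A sex difference that varies with batch, as in the class II genes, therefore stays in the values and in r. Permutation p-values came from 20736 arrangements within treatment, sex and batch, whose smallest p is 4.82e-05, and were adjusted over the 75 pairs. All pairs share the libraries and their depth.

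The 6 pairs of class II genes had Pearson r from 0.967 to 0.990 and Spearman rho from 0.958 to 0.988, and all were called by permutation. Without the 2 farthest mice r stayed between 0.953 and 0.987, and within the batches it ran from 0.969 to 0.997 and from 0.964 to 0.987. The 3 pairs of class I chains had r from 0.720 to 0.903 and rho from 0.668 to 0.779, all called. Psmb8 was correlated with H2-K1 (r = 0.836, rho = 0.830), H2-D1 (r = 0.828, rho = 0.798) and B2m (r = 0.835, rho = 0.777), with adjusted permutation p of 0.00804, 0.00517 and 0.0168.

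None of the 12 pairs between class I and class II was called by r, which ran from 0.382 to 0.722. By rho 4 of them were, up to 0.774. The pairs of class II with C1qa had r from 0.626 to 0.699 and with Ptprc from 0.659 to 0.730, and none of the 30 pairs with a marker was called by r. By rho 1 of them was, B2m with C1qa (r = 0.810, rho = 0.759, adjusted permutation p of 0.0489 by rho). Tap1 with Psmb8 (r = 0.726, rho = 0.735) had an adjusted permutation p of 0.0695 by r and 0.0489 by rho. Psmb9 with Tap1, its neighbour across the shared start, had r = 0.458 and rho = 0.537.

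**Figure D5:**
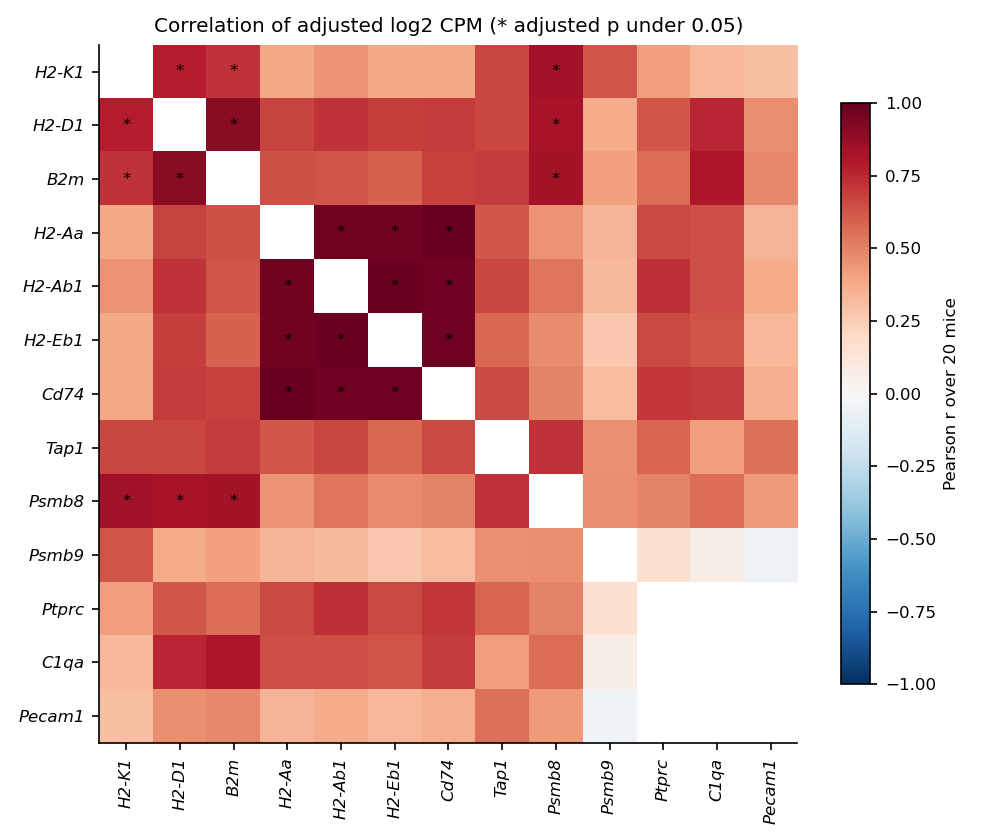
Pearson r of adjusted log2 CPM over 20 mice (colour) for each pair of the 10 genes and of these with Ptprc, C1qa and Pecam1, with an asterisk where the adjusted permutation p is under 0.05. The class II block has r of at least 0.967, the class I block joins Psmb8, and no pair with the 3 marker genes has an asterisk.

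By the same measure over 20 mice, the genes outside the set most like H2-Ab1 were H2-DMb1 (r = 0.904), Pip4k2a (0.891), Marcks (0.869), Unc93b1 (0.865) and AC138228.2 (0.855). Those most like H2-K1 were AW112010 (r = 0.843), H2-Q4 (0.827), Stk39 (0.820), Casq2 (0.792) and Cmpk2 (0.792). Those most like Psmb8 were AW112010 (r = 0.881), H2-Q6 (0.873), Ifit3 (0.826), Ly6e (0.801) and Rtp4 (0.796). H2-Q4 and H2-Q6 are class I genes whose reads may be shared with H2-K1 and H2-D1.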

How the data were processed

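The deposited matrix gives raw read counts per gene for 20 mice, which the authors made with FastQC, STAR 2.6.1c, genome GRCm38.p6 and GENCODE M25, and DESeq2 1.28.1 was their test. The strand setting of the counting and its treatment of multi-mapping reads: not given in the sources used here. All 20 columns were used and 0 left out. Positions and exon lengths came from GENCODE M21, to which 55141 of the 55401 gene identifiers matched, and the pathway and marker lists were matched by symbol. Promoter windows on chromosome 18 were left out of the motif search.

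Counts were tested with edgeR 4.0.16 in R 4.3.3 (filterByExpr, TMM, quasi-likelihood test, design treatment, sex and batch), with Benjamini-Hochberg adjustment over all genes tested and a threshold of 0.05. Interactions were added as 1 term each. CPM are TMM-scaled, and log2 CPM used a prior count of 2. SEs are the log2 fold change over the square root of F. Ratios used counts per kb of union exon plus 0.5, with exact permutation within treatment or sex and batch. DESeq2 1.42.0, limma 3.58.1 (voom), other scalings and filters, covariate sets, single batches and sexes, and each mouse left out were alternatives. The edgeR script was tested on simulated data. Other steps used Python 3.11.15.

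Named were all 10 genes, every list gene with an adjusted p under 0.05, otherwise the list gene with the lowest p, the constitutive subunits Psmb5, Psmb6 and Psmb7, and the 5 genes most like H2-Ab1, H2-K1 and Psmb8. H2-Q6, Gbp7 and Psmb10 in the HK comparison are named for the lowest p of their lists. The 10 genes and the lists were chosen with earlier results of these data known. Libraries of a group differed by more than counting noise (chi-square per degree of freedom 8.06 to 49.6 over 16 pairs), so none was merged. Labels give 1 library per mouse, and p-values other than those of the fit with no filter on low counts measure the spread between mice.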

Additional observations from a re-analysis of the deposited data

Results flagged for a closer look

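In 40 groups of 10 mice (the 10 genes, 7 marker sums and 3 subunit ratios, each by treatment), the extreme mouse was compared with its nearest neighbour, and a gap of more than 0.466 of the group's range was noted. Chance alone would mark about 1 group in 20, and 2 groups were marked. Psmb8 over Psmb5 was 2.02% in untreated male 2, below the other 9 untreated mice by 0.467 of the range on the log2 scale, only just past the limit. Psmb9 over Psmb6 was 0.216% in HK-treated male 4, below the other 9 HK-treated mice by 0.521 of the range. That mouse also had the lowest level of Psmb9 itself, 0.515 CPM. Neither ratio passed the threshold between the treatments, with these mice or without them. No gene's treatment by sex or treatment by batch term passed the adjusted threshold of edgeR.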

How the results depend on the processing

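With HK none of the 10 genes was called under any alternative run, including the replicate block of same-numbered mice of 1 sex (10 blocks, 0 genes of the 10 called and 0 of all 14340 tested, 849 at an unadjusted p under 0.05). Correlations of same-numbered mice ran from -0.33 to 0.232. Those of differently numbered mice were not computed, so whether the numbers pair the mice was not decided. Over all genes the HK comparison gave 502 calls with no filter on low counts, 7 with DESeq2 and 0 with limma voom. The sex comparison gave 489 calls in untreated and 651 in HK-treated mice alone, 1316 in batch 1 and 878 in batch 2, against 2197, and the batch comparison 1497 in females alone against 5062. The cause of these changes was not tested, but the single-batch, single-sex and single-treatment fits hold fewer mice.

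Of the 10 genes, 4 were called between the sexes with no filter on low counts, where 9.25% of all genes were called, and 4 in batch 2 alone, where 6.59% were, against 0. Without the filter the SE of H2-Ab1 was 0.09, against 0.27 with it, at nearly the same fold change. In females alone 1 was called between the batches, against 7, which were called without each mouse in turn. DESeq2 called 2 for the sex by batch term, where it called 1.02% of all genes, against 0.

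Small HK effects changed sign. In males alone H2-K1 was -0.026, H2-D1 -0.070, B2m -0.085, H2-Ab1 -0.37, Psmb8 -0.12 and Psmb9 -0.59 (log2). In females alone H2-Aa was 0.22, H2-Eb1 0.29, Cd74 0.29 and Tap1 0.46. In batch 1 H2-Aa was 0.15, H2-Eb1 0.094, Cd74 0.22 and Tap1 0.28, and in batch 2 B2m -0.0087 and H2-Ab1 -0.074. H2-Ab1 was -0.042 with limma voom, -0.14 with no covariates and -0.044 with batch as the only covariate. Tap1 was 0.0063 with no filter, 0.045 with limma voom and 0.00048 with batch as the only covariate. Without each mouse in turn B2m ran from -0.0054 to 0.077, H2-Ab1 from -0.13 to 0.14, H2-Eb1 from -0.17 to 0.090, Cd74 from -0.22 to 0.081 and Tap1 from -0.15 to 0.12.

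Between the sexes, batch 1 gave 0.036 for H2-K1, 0.12 for H2-D1, 0.49 for H2-Aa, 0.36 for H2-Ab1, 0.45 for H2-Eb1 and 0.42 for Cd74, and batch 2 gave -0.088 for Tap1. HK-treated mice alone gave 0.10 for H2-K1, 0.027 for H2-D1 and 0.010 for B2m, and untreated mice alone -0.34 for Tap1 and -0.62 for Psmb9. Without each mouse H2-K1 ran from -0.066 to 0.0097, Tap1 from -0.042 to 0.23 and Psmb9 from -0.075 to 0.13. Between the batches Tap1 was -0.029 in females alone. The sex by batch term ran from -0.26 to 0.063 for Psmb8 and from -0.22 to 0.31 for Psmb9 without each mouse.

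Of the ratios, Psmb8 over Psmb5 between the sexes was 0.41 in batch 1 and 0.37 in batch 2, neither called after adjustment, and 0.29 to 0.46 without each mouse. Psmb9 over Psmb6 with HK was -0.12 in batch 2. Without each mouse the HK differences ran from -0.0077 to 0.17 for Psmb8 over Psmb5, from -0.075 to 0.25 for Psmb9 over Psmb6 and from -0.28 to -0.17 for Psmb10 over Psmb7, and the sex difference of Psmb9 over Psmb6 from -0.0025 to 0.33. The cause was not tested in any of these. Depth limits Psmb9 most, with 7 to 83 reads per mouse.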
